A study of Mus musculus with 12 samples.

Results

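The Cyp4a genes encode cytochrome P450 enzymes that hydroxylate fatty acids at the omega carbon, the methyl end of the chain. The 6 members described here are Cyp4a10, Cyp4a12a, Cyp4a12b, Cyp4a14, Cyp4a31 and Cyp4a32. They were taken by gene name from a table of 22093 gene names, and the values of all transcripts that carry a name were summed in each liver. All 6 passed the filter of a mean of at least 0.5 FPKM and were among the 11543 genes tested. FPKM is the number of fragments scaled to transcript length and to the mapped fragments of a library, so that levels of different genes can be set side by side.

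The study asked whether a leaf extract of Chrysanthemum morifolium Ramat (CLE) or the flavonoid luteolin (LU) alters lipid metabolism in mice made obese by diet. Livers of 12 male C57BL/6J mice were sequenced, 3 in each of 4 groups, and all mice were fed their diet for 16 weeks from 5 weeks of age and were 21 weeks old at sampling after a fast. The ND group received a normal diet with 12% of energy from fat and the HFD group a high-fat diet with 45% of energy from fat. The CLE group, which the labels call CLL, received the high-fat diet with 1.5% (w/w) extract, and the LU group the high-fat diet with 0.003% (w/w) luteolin. The sequenced livers were a choice of representative animals from larger groups, and they were bulk tissue, in which fewer cells of a type and less RNA per cell cannot be told apart.

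Omega-hydroxylation is a side route of fatty acid breakdown in the liver. The Cyp4a enzymes sit in the endoplasmic reticulum, take electrons from cytochrome P450 reductase and place a hydroxyl group on the end of the chain, which alcohol and aldehyde dehydrogenases then oxidize to a dicarboxylic acid for shortening in peroxisomes. Cyp4a10 and Cyp4a14 are classical targets of the nuclear receptor PPAR-alpha, which senses fatty acids and is active in fasting. Cyp4a12a and Cyp4a12b are expressed more in males than in females and depend on androgen in the kidney, and Cyp4a12a forms the vasoactive omega-hydroxylated product of arachidonic acid. Cyp4a31 and Cyp4a32 are close copies of Cyp4a10 whose own roles are less well described.

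The members lie in 1 cluster on chromosome 4 (GRCm38, GENCODE M21 annotation), within 322.6 kb from 115299046 to 115621602. Cyp4a12a (ENSMUSG00000066071, 115299046 to 115332815), Cyp4a12b (ENSMUSG00000078597, 115411624 to 115439034), Cyp4a10 (ENSMUSG00000066072, 115518264 to 115533649), Cyp4a31 (ENSMUSG00000028712, 115563649 to 115579015) and Cyp4a32 (ENSMUSG00000063929, 115600969 to 115621602) are on the plus strand. Cyp4a14 (ENSMUSG00000028715, 115486200 to 115496142) is on the minus strand between Cyp4a12b and Cyp4a10. A pair of further coding genes of the cluster, Cyp4a29 and Cyp4a30b, were listed at 0 in all 12 livers.

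**Figure D1:**
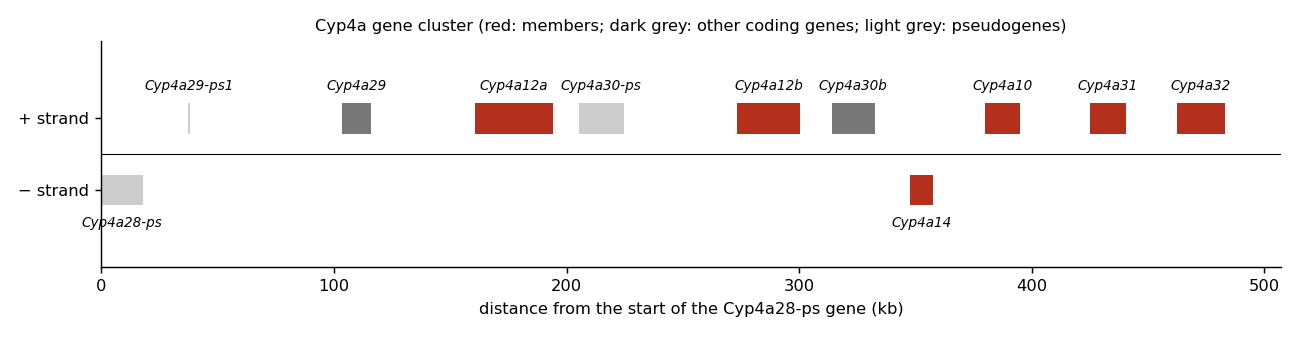
Map of the Cyp4a cluster to scale, with the distance in kb from the start of the Cyp4a28-ps pseudogene on the x axis and the strands above and below the line. The 6 members are in red, other coding genes in dark grey and pseudogenes in light grey, and Cyp4a14 is the single member on the minus strand.

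The coding sequences of the members fall into close copies, which decides how well the fragments of one can be told from another. A stretch of 60 coding bases that holds the heme-binding signature of the family, read from the GENCODE M21 transcripts, shows this. It is written from 5′ to 3′, and capitals mark the bases that differ from Cyp4a10.
Cyp4a10, Cyp4a31 and Cyp4a32: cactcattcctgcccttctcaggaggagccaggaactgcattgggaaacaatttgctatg
Cyp4a12a and Cyp4a12b: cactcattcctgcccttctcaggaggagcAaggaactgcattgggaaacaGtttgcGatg
Cyp4a14: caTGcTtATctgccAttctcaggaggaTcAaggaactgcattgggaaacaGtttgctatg

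The stretch is the same in Cyp4a10, Cyp4a31 and Cyp4a32, differs at 3 bases in Cyp4a12a and Cyp4a12b, and differs at 9 bases in Cyp4a14. Over the whole coding sequence, Cyp4a12a and Cyp4a12b were 98.5% identical, with 23 different bases of 1527. Cyp4a10 was 97.2% identical to Cyp4a32 and 96.6% identical to Cyp4a31. Cyp4a14 was 75.8% to 76.4% identical to the other members. The reads were 100 bases long. Of the 100-base windows of the longest coding transcript, 35.8% in Cyp4a12a and 36.2% in Cyp4a12b also occur in another member, against 20.1% in Cyp4a32, 12.7% in Cyp4a10 and 8.2% in Cyp4a31. In Cyp4a14 the share was 0.0%. The levels of Cyp4a12a against Cyp4a12b, and of Cyp4a32 and Cyp4a31 against Cyp4a10, are therefore less certain than those of Cyp4a14, since fragments can be shared out between copies.

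Cyp4a14 and Cyp4a10 made up most of the family's RNA in every liver. Summed over the 6 members, ND livers held 5765 ± 1804 FPKM (mean ± SD, n = 3 mice), HFD livers 2446 ± 632, CLE livers 3819 ± 1011 and LU livers 3007 ± 352. Cyp4a14 held on average 64.2% of this sum in ND livers, 54.4% in HFD livers, 50.2% in CLE livers and 43.2% in LU livers. Cyp4a10 held 28.3%, 40.5%, 40.9% and 47.7% in the same order. Cyp4a14 was the higher of this pair in 8 of the 12 livers, and Cyp4a10 was the higher in HFD mouse 18, CLE mouse 11, LU mouse 2 and LU mouse 3. The remaining 4 members were each at most 5.68% of the sum in every liver.

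**Figure D2:**
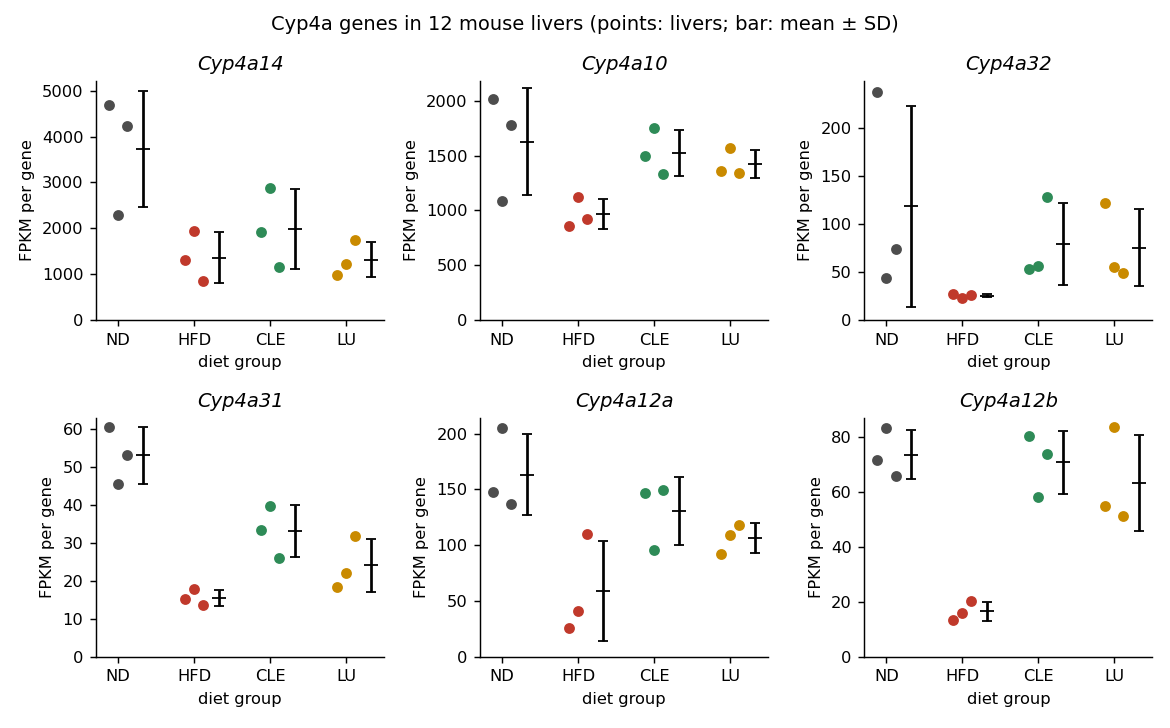
Level of each Cyp4a gene in FPKM (y axis, linear and from 0) in single livers by diet group (x axis). Points are single livers and bars the mean ± SD of 3 mice, and HFD livers are below all ND livers in every panel but that of Cyp4a10, in which HFD mouse 15 (1120 FPKM) is above ND mouse 3 (1082 FPKM).

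Cyp4a14, the most abundant member in the ND group, is a lauric acid omega-hydroxylase that fasting and fibrate drugs raise. It was at 4678, 2286 and 4224 FPKM in ND mice 2, 3 and 4 and at 1305, 1936 and 845 FPKM in HFD mice 12, 15 and 18. It was at 1912, 2881 and 1150 FPKM in CLE mice 2, 4 and 11 and at 988, 1223 and 1739 FPKM in LU mice 2, 3 and 8. The ND livers were above all HFD and LU livers, 1 CLE liver reached into the ND range, and the HFD, CLE and LU ranges overlapped.

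Cyp4a10, which also hydroxylates lauric acid, was at 2020, 1082 and 1781 FPKM in the ND group and at 860, 1120 and 921 FPKM in the HFD group. It was at 1492, 1747 and 1335 FPKM in the CLE group and at 1357, 1565 and 1342 FPKM in the LU group. Every CLE and every LU liver was above every HFD liver, and ND mouse 3 was low, inside the HFD range. ND mouse 3 was also the lowest of the ND group for Cyp4a14, Cyp4a32 and Cyp4a31, and the highest for Cyp4a12a and Cyp4a12b.

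Cyp4a32 was at 238, 43.5 and 74.1 FPKM in the ND group and at 27.0, 23.5 and 26.1 FPKM in the HFD group. It was at 53.1, 56.0 and 128 FPKM in the CLE group and at 122, 55.1 and 49.6 FPKM in the LU group. The HFD livers were below all others, and each of the other groups had a single liver above 120 FPKM that stood apart from its fellows.

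Cyp4a31 was at 60.7, 45.6 and 53.1 FPKM in the ND group and at 15.2, 17.9 and 13.7 FPKM in the HFD group. It was at 33.5, 39.8 and 26.0 FPKM in the CLE group and at 18.3, 22.0 and 31.9 FPKM in the LU group. The ND livers were the highest and the HFD livers the lowest, with CLE and LU livers between them and overlapping each other.

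Cyp4a12a, the arachidonic acid omega-hydroxylase of male mice, was at 147, 205 and 137 FPKM in the ND group and at 26.0, 40.8 and 110 FPKM in the HFD group. It was at 147, 95.2 and 149 FPKM in the CLE group and at 92.0, 109 and 118 FPKM in the LU group. HFD mouse 18 stood apart from the other HFD mice and lay within the CLE and LU ranges, though below all ND livers.

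Cyp4a12b, its near-identical neighbour, was at 71.8, 83.4 and 65.9 FPKM in the ND group and at 13.6, 15.9 and 20.4 FPKM in the HFD group. It was at 80.6, 58.3 and 73.9 FPKM in the CLE group and at 55.0, 83.6 and 51.5 FPKM in the LU group. The HFD livers were below all the others with a wide gap, and the ND, CLE and LU livers overlapped. The ratio of Cyp4a12a to Cyp4a12b was between 1.30 and 2.56 in 11 livers and 5.40 in HFD mouse 18. Since the 2 copies can share fragments, this ratio of 1 liver may also depend on how these were split, which was not tested.

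The comparison of HFD with ND livers asks what the high-fat diet alone did to the family. All 6 members fell in HFD livers (limma on log2(FPKM + 1), adjusted p under 0.05 over all genes), where 2.13% of all genes tested were called lower. The median log2 difference over all genes tested was 0.11, and median-of-ratios scaling, which brought it to 0.01, gave 3.71% of genes lower and again 6 of 6 members. Other settings gave fewer. Without the filter on low values Cyp4a10 (adjusted p = 0.086), Cyp4a14 (0.064) and Cyp4a32 (0.092) did not pass, where 1.25% of all genes were lower. Cyp4a10 also failed by each gene's top transcript (0.091), with reference transcripts only (0.073) and with the 2 groups alone (0.065). The other members passed there. For 5 of 6 members no HFD liver reached the ND range, where 7.43% of all genes were separated in that direction. Differences below are on the log2(FPKM + 1) scale, HFD minus ND.

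Cyp4a12b fell the most, by 2.09 on the log2 scale (SE 0.19, adjusted p = 4.7e-05), a 4.27-fold lower level. Cyp4a31 fell by 1.70 (SE 0.20, adjusted p = 2.0e-04). Both calls held when any single ND or HFD mouse was left out. Cyp4a12a fell by 1.69 (SE 0.38, adjusted p = 0.014), and the call was lost without HFD mouse 12, where the difference was -1.24 (adjusted p = 0.0502).

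Cyp4a14 fell by 1.47 (SE 0.38, adjusted p = 0.025), a 2.76-fold lower level. Cyp4a32 fell by 1.81 (SE 0.52, adjusted p = 0.039) and Cyp4a10 by 0.71 (SE 0.21, adjusted p = 0.042). Without ND mouse 2, ND mouse 4, HFD mouse 12 or HFD mouse 18 the call of Cyp4a14 was lost, with the difference between -1.79 and -1.16 and the adjusted p up to 0.11 over the mice left out. The calls of Cyp4a10 and Cyp4a32 were lost when any ND or HFD mouse other than ND mouse 3 was left out, with an adjusted p of up to 0.18 and 0.14. Their differences stayed between -0.98 and -0.53 and between -2.34 and -1.12 over the mice left out. The share of all genes called lower was 1.18% to 1.68% in these fits.

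The comparisons of CLE and of LU with HFD ask whether the additives changed the family under the high-fat diet. They share the HFD mice, and an HFD liver that is high or low moves both. In CLE livers 2 of 6 members passed as higher, Cyp4a12b and Cyp4a31, where 2.74% of all genes were called higher. The CLE and HFD livers did not overlap, with CLE higher, for 4 of 6 members, against 16.3% of all genes. In LU livers 1 of 6 members passed, Cyp4a12b, where 0.303% of all genes were called higher, and 4 of 6 members did not overlap, against 13.1% of all genes. The shares of all genes called higher depended on single mice. For CLE they ran from 0.043% without HFD mouse 15 and 0.165% without CLE mouse 4 to 8.70% without CLE mouse 2, and for LU from 0.026% without LU mouse 3 to 0.451% without LU mouse 8.

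Cyp4a12b was 4.09-fold higher in CLE than in HFD livers (log2 difference 2.03, SE 0.19, adjusted p = 7.0e-04). In LU livers it was 3.61-fold higher than in HFD livers (log2 difference 1.85, SE 0.19, adjusted p = 0.0014). Both calls held when each mouse was left out in turn. Cyp4a12a, its copy, was higher by 1.36 in CLE livers (SE 0.38, adjusted p = 0.052) and by 1.09 in LU livers (SE 0.38, adjusted p = 0.15), and neither passed. Without HFD mouse 18 both did, at 1.94 (adjusted p = 0.0066) and 1.67 (adjusted p = 0.018).

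Cyp4a31 was higher by 1.03 in CLE than in HFD livers (SE 0.20, adjusted p = 0.022), and the call was lost without HFD mouse 12, HFD mouse 15, HFD mouse 18 or CLE mouse 4, with the difference between 0.89 and 1.19 and the adjusted p up to 0.085 over the mice left out. With the transcript of the highest mean it was 0.55 (adjusted p = 0.17), and that call was lost too. In LU livers its difference was 0.57 (SE 0.20, adjusted p = 0.15). Cyp4a10 differed by 0.66 in CLE (SE 0.21, adjusted p = 0.069) and by 0.56 in LU livers (SE 0.21, adjusted p = 0.17). Cyp4a32 differed by 1.47 (SE 0.52, adjusted p = 0.091) and by 1.41 (SE 0.52, adjusted p = 0.17). For this pair of genes every CLE and LU liver was above every HFD liver, yet the differences did not pass.

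Cyp4a14 differed by 0.52 between CLE and HFD livers (95% interval -0.30 to 1.34, adjusted p = 0.37) and by -0.01 between LU and HFD livers (95% interval -0.83 to 0.81, adjusted p = 0.99). With 3 mice a group this interval leaves room for a change of up to about 0.8 on the log2 scale in either direction in LU livers. Whether its difference departed from that of Cyp4a12b was not tested.

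**Figure D3:**
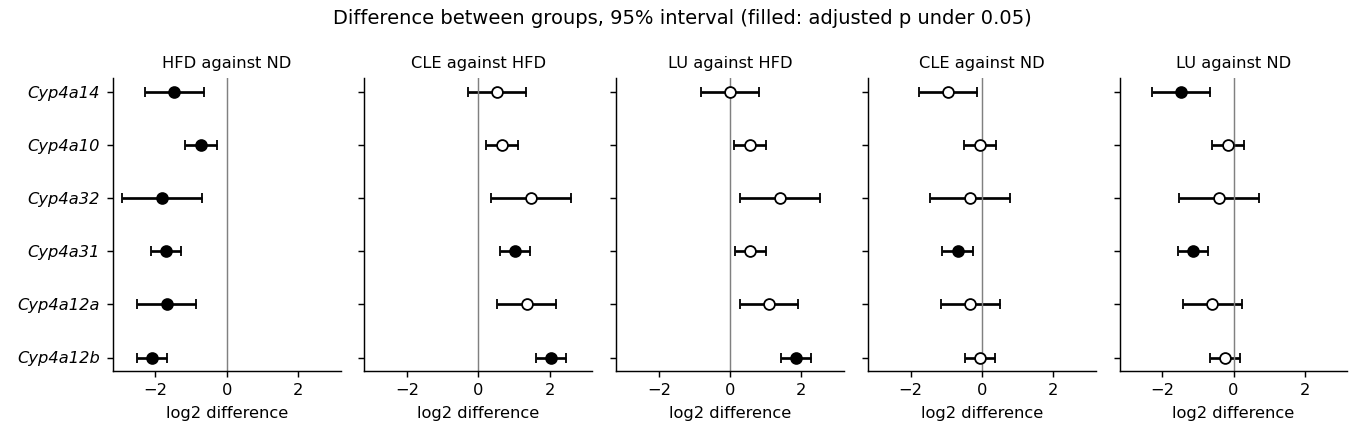
Log2 difference between groups on the log2(FPKM + 1) scale (x axis) for each member (y axis), with 95% intervals from limma and filled points for an adjusted p under 0.05. All 6 points are filled and below 0 for HFD against ND, and Cyp4a12b is filled and above 1.8 for CLE and for LU against HFD.

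Against the ND group, which both comparisons share, 1 member passed as lower in CLE livers, where 6.10% of all genes were called lower, and 2 members in LU livers, where 3.79% were. With median-of-ratios scaling these shares of all genes were 12.1% and 7.29%. Cyp4a31 was lower by 0.68 in CLE (SE 0.20, adjusted p = 0.026) and by 1.14 in LU livers (SE 0.20, adjusted p = 0.0053). The LU call held when any single mouse was left out, and the CLE call was lost without ND mouse 2, ND mouse 4 or CLE mouse 11 (-0.82 to -0.52 over the mice left out, adjusted p up to 0.090). Cyp4a14 was lower by 1.47 in LU livers (SE 0.38, adjusted p = 0.025), a call lost without ND mouse 2, ND mouse 4, LU mouse 2 or LU mouse 3 (-1.79 to -1.28 over the mice left out, adjusted p up to 0.085). Groups that did not overlap, with LU lower, were found for 3 of 6 members, against 11.5% of all genes. In CLE livers Cyp4a14 differed by -0.94 (SE 0.38, adjusted p = 0.078) and passed without ND mouse 3 or CLE mouse 4.

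Cyp4a10 differed from ND by -0.05 in CLE (95% interval -0.50 to 0.40) and by -0.15 in LU livers (-0.60 to 0.30). Cyp4a12b differed by -0.06 (-0.48 to 0.36) and by -0.24 (-0.66 to 0.18). The intervals of Cyp4a12a and Cyp4a32 were wider, from -1.16 to 0.50 and -1.46 to 0.79 in CLE livers. These 4 members did not pass in either comparison, which does not show that their levels were the same.

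CLE and LU livers did not differ in any member by the adjusted test (0 of 6, limma), where 0.00866% of all genes, 1 gene, was called. At an unadjusted p under 0.05, 507 genes passed, among them the member Cyp4a31 (log2 difference 0.46, CLE minus LU, adjusted p = 0.97, limma). The difference of Cyp4a12b was 0.18 (95% interval -0.24 to 0.60), that of Cyp4a10 was 0.10 (-0.35 to 0.55) and that of Cyp4a14 was 0.53 (-0.29 to 1.35). The extract and luteolin were given at different doses, so these values compare 2 diets and not equal amounts. Across all 4 groups, the F test passed for 4 of 6 members, where 24.5% of all genes passed. Its adjusted p was 1.5e-04 for Cyp4a12b, 0.0012 for Cyp4a31, 0.028 for Cyp4a12a, 0.034 for Cyp4a14, 0.061 for Cyp4a10 and 0.065 for Cyp4a32.

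The transcripts behind the sums did not all move together. The table splits Cyp4a14 into a reference transcript of 2496 bases, an assembled form of it and a short processed transcript of 505 bases. The short transcript was at 1106, 531 and 1577 FPKM in the ND group and 442, 591 and 99.3 FPKM in the HFD group. It was at 173, 37.3 and 15.2 FPKM in the CLE group and 9.89, 20.8 and 86.3 FPKM in the LU group. It thus held 23.2% to 37.3% of the gene's sum in ND livers, 11.7% to 33.9% in HFD livers, and 1.00% to 9.06% in CLE and LU livers. Every ND and HFD liver was above every CLE and LU liver in this share.

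The reference transcript of Cyp4a14 alone was at 3241, 1632 and 2386 FPKM in ND, 796, 1283 and 710 FPKM in HFD, 1625, 2431 and 1064 FPKM in CLE, and 906, 1126 and 1520 FPKM in LU livers. With protein-coding transcripts only, Cyp4a14 still fell in HFD against ND livers (-1.42, adjusted p = 0.019). Against HFD it differed by 0.90 in CLE and by 0.39 in LU livers, without passing, and against ND by -1.03 in LU livers, where the call was lost (adjusted p = 0.060). FPKM of so short a transcript are estimates that share fragments with the longer forms, and the part of this in the gene's sum beyond these values was not tested.

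Cyp4a32 has a reference transcript of 1530 bases, an assembled form of it and a short processed transcript of 736 bases. The assembled form was at 65.6 FPKM in ND mouse 2, 29.8 in CLE mouse 11 and 13.9 in LU mouse 2, and below 1 FPKM in the other 9 livers. The short transcript was also highest in these 3 livers, at 55.6, 45.1 and 39.1 FPKM, against 5.42 to 13.3 FPKM in the others. The high livers of Cyp4a32 are therefore high in part through these forms. The reference transcript alone ranged from 17.6 to 20.9 FPKM in HFD livers and from 34.6 to 117 FPKM in the other groups, which did not overlap with HFD.

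Cyp4a31 also held much of its sum in a short coding transcript of 533 bases, 50.6% to 58.2% in ND, 52.1% to 55.2% in HFD and 32.0% to 51.4% in CLE and LU livers. With transcripts of at least 1000 bases its differences were 1.35 for CLE against HFD, 0.84 for LU against HFD and -0.75 for LU against ND, of which the first and the last passed. For CLE against ND it was -0.24, and that call was lost. Cyp4a10 held 95.6% to 98.6% of its sum in a single transcript in every liver, and Cyp4a12a and Cyp4a12b have 1 transcript each in the table.

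**Figure D4:**
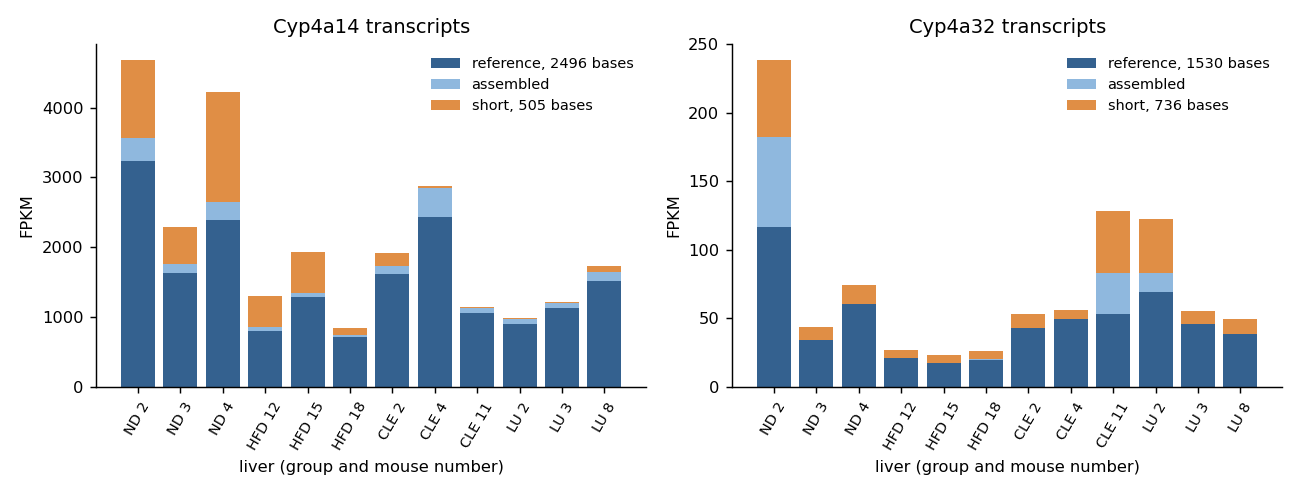
Stacked FPKM (y axis, from 0) of the transcripts of Cyp4a14 and Cyp4a32 in each of the 12 livers (x axis, group and mouse number). The short transcript of Cyp4a14 is a large part of the bars in ND livers, 11.7% to 33.9% of them in HFD livers and a thin part in CLE and LU livers. The assembled form of Cyp4a32 shows in ND mouse 2, CLE mouse 11 and LU mouse 2.

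Most of the enzymes and carriers that act with the Cyp4a enzymes did not pass. Of the partners of omega-oxidation that were tested, 1 of 20 rose and 4 fell in HFD against ND livers, with a median log2 difference of -0.04 beside 0.11 over all genes. The acyl-CoA synthetases Acsl5 (-0.76, adjusted p = 0.0042) and Acsl1 (-0.76, adjusted p = 0.0040), which activate fatty acids, were among those that fell. The others were the soluble epoxide hydrolase Ephx2 (-0.59, adjusted p = 0.0058) and the peroxisomal transporter Abcd3 (-0.55, adjusted p = 0.017). Cyb5a, the cytochrome that can pass electrons to P450 enzymes, rose by 0.68 (adjusted p = 0.030).

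In CLE against HFD livers, 2 of 20 partners passed as higher and 0 as lower, where 2.74% of all genes were called higher. The 2 were the peroxisomal thiolase Acaa1a (0.66, adjusted p = 0.049) and Ephx2 (0.58, adjusted p = 0.022). In LU against HFD livers 0 passed. Of the other genes of the Cyp4 family, 7 of 13 in the table were tested, and 0 passed in HFD against ND, CLE against HFD or LU against HFD livers. Their median differences were 0.14, 0.09 and 0.04, beside 0.11, 0.02 and -0.02 over all genes.

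Some known targets of PPAR-alpha, in a list without Cyp4a genes, also fell under the high-fat diet. The list shares genes with that of the omega-oxidation partners, among them Acsl1 and Acaa1a. In HFD against ND livers 0 of 29 rose and 6 fell, where 2.13% of all genes were called lower. With median-of-ratios scaling 9 of 29 fell, where 3.71% of all genes were called lower. By each gene's top transcript 1 of 29 fell, where 1.24% of all genes were. Without these changes the median of the list was -0.28 beside 0.11 over all genes. The largest falls were in Cyp8b1 of bile acid synthesis (-0.99, adjusted p = 0.0030), the lipase Mgll (-0.79, adjusted p = 0.0049), Acsl1, and Hadhb of mitochondrial beta-oxidation (-0.63, adjusted p = 0.010). The median of the 6 members lay further down, since their differences ran from -2.09 to -0.71. In CLE against HFD livers 2 of 29 rose, the thioesterase Acot2 (1.01, adjusted p = 0.040) and Acaa1a, where 2.74% of all genes were called higher. The median was 0.26. In LU against HFD livers 0 passed, with a median of 0.18.

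Ppara, which encodes the receptor, was at 100, 77.5 and 104 FPKM in ND, 90.2, 97.8 and 95.0 in HFD, 98.5, 105 and 94.8 in CLE, and 96.4, 76.7 and 101 in LU livers. The groups overlapped, and its differences did not pass. They were 0.02 for HFD against ND (adjusted p = 0.95), 0.08 for CLE against HFD (adjusted p = 0.73) and -0.05 for LU against HFD (adjusted p = 0.84). The sign of each of these changed with the processing. With protein-coding transcripts only, CLE against HFD gave -0.49. Of the 13 regulators tested, including the partners and coactivators of the receptor, 2 rose in HFD against ND livers, the constitutive androstane receptor Nr1i3 (0.93, adjusted p = 0.033) and Pparg (0.70, adjusted p = 0.023), where 12.1% of all genes were called in either direction. With median-of-ratios scaling 0 of 13 passed.

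Of the genes known to be higher in male than in female livers, 7 of 13 fell in HFD against ND livers and 0 rose. Their median was -0.89 beside 0.11 over all genes, of which 2.13% were called lower. Hsd3b5, a steroid dehydrogenase of male liver, fell by 5.19 (adjusted p = 0.0018), the transporter Slco1a1 by 3.28 (adjusted p = 1.1e-04) and the oxysterol hydroxylase Cyp7b1 by 1.96 (adjusted p = 0.0049). Of 13 female-biased genes with values, only 3 passed the filter, and 2 rose, Cyp2b9 by 5.74 (adjusted p = 1.2e-04) and Cyp2a4 by 2.26 (adjusted p = 4.7e-05). Cyp2a4 was at 4.00 to 5.66 FPKM in HFD livers and at most 1.125 FPKM in the others. It passed the filter through the group in which it was high, so its calls are no support. Without the filter 3 of 12 rose and 1 fell, where 5.92% and 1.25% of all genes did. The median was then 0.04 beside 0.05 over all genes. Cyp2b9 belongs to a family of near-identical copies and is uncertain for that reason.

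Against HFD, 4 of 13 male-biased genes rose in CLE and 3 of 13 in LU livers, with 0 lower in either. Of all genes, 2.74% and 0.303% were called higher in these comparisons. Without the filter on low values 0 of 13 passed in both comparisons, where 0.301% and 0.1005% of all genes were called higher. With a minimum mean of 5 FPKM 8 of 13 rose in CLE and 3 of 13 in LU livers. The shares of all genes called higher were then 5.17% and 0.483%. Slco1a1 was at 18.4, 11.4 and 17.9 FPKM in HFD, 61.4, 38.2 and 95.2 in CLE, 81.1, 90.4 and 35.4 in LU, and 159, 172 and 150 in ND livers. Hsd3b5 was higher by 3.64 in CLE and by 3.86 in LU livers (adjusted p = 0.033 and 0.048). Of the 3 female-biased genes that passed the filter, the 2 that had risen were lower again. Cyp2a4 was at -1.78 in CLE and -1.96 in LU livers. It passed the filter through the HFD group, so these calls are no support either. When the filter was left out, 2 of 12 were lower in each comparison, where 0.437% and 0.230% of all genes were called lower. The medians were then -0.05 and -0.06, beside 0.007 and 0 over all genes. All mice were male by the labels, and what ties these lists to the members was not tested.

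**Figure D5:**
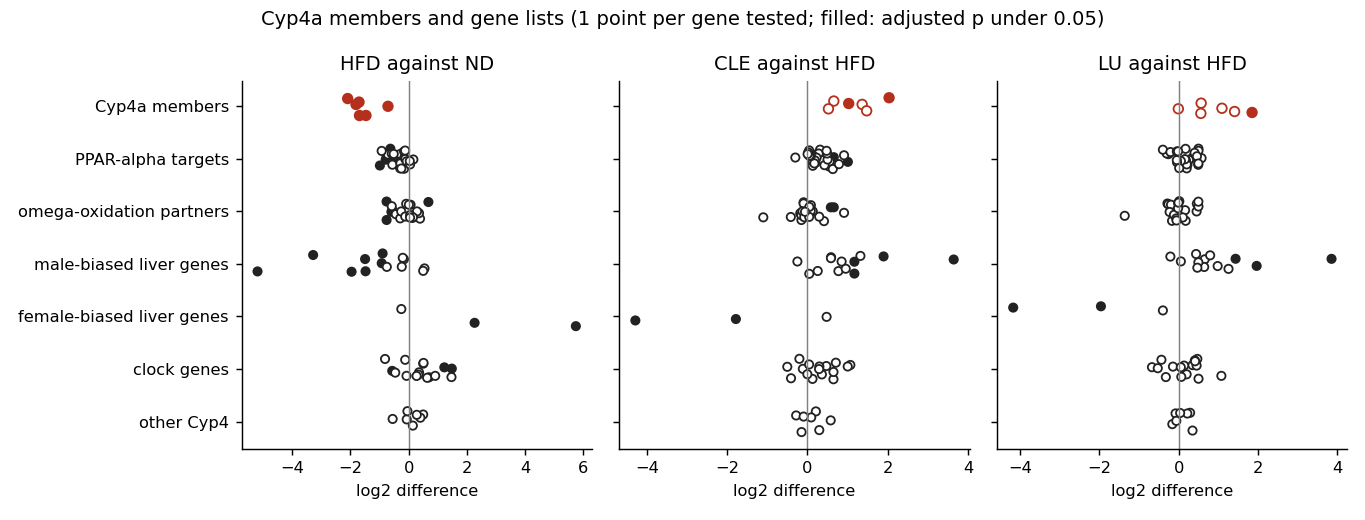
Log2 differences on the log2(FPKM + 1) scale (x axis) of the 6 members in red and of 6 lists of genes in black (y axis), 1 point for each gene tested and filled for an adjusted p under 0.05. In the panel of HFD against ND, all 6 members and 7 of 13 male-biased genes are filled points on the left side of 0.

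The livers also differed in other measures that move with the groups. The clock output gene Dbp was at 3.01, 21.4 and 2.06 FPKM in ND, 23.1, 6.94 and 29.5 in HFD, 37.7, 43.9 and 26.0 in CLE, and 50.3, 38.2 and 26.3 in LU livers. ND mouse 3, which was low for Cyp4a14 and Cyp4a10, was the ND liver with high Dbp. In the CLE group it was the other way, as mouse 4 was the highest for Dbp, Cyp4a14 and Cyp4a10. HFD mouse 15 and LU mouse 8 had the lowest Dbp and the highest Cyp4a14 of their groups. Cyp4a10 was the highest of its group in HFD mouse 15 and the lowest in LU mouse 8. Dbp differed by 1.47 in HFD against ND livers (adjusted p = 0.16), by 2.47 in CLE against ND livers (adjusted p = 0.016) and by 2.55 in LU against ND livers (adjusted p = 0.023). In HFD against ND livers 3 of 16 clock genes rose and 1 fell, where 12.1% of all genes were called. In CLE and in LU against ND livers 8 of 16 rose and 2 fell, where 20.9% and 11.2% of all genes were called higher and 6.10% and 3.79% lower. The part of these genes in the differences of the members was not tested.

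Some markers of other cells rose under the high-fat diet. Of the 12 tested genes of macrophages, lymphocytes, stellate, endothelial and bile duct cells, 5 rose and 0 fell in HFD against ND livers, among them Col3a1 (1.77), Col1a1 (1.34) and Cd68 (1.20). The summed level of the 19 listed markers was 110 to 122 FPKM in ND, 174 to 242 in HFD, 152 to 251 in CLE and 135 to 223 in LU livers. Hepatocyte genes summed to 18277 to 20820 FPKM in ND and 19217 to 21899 in HFD livers, with 0 of 9 called. That sum lacks albumin, which was listed at 0 in 11 of 12 livers and at 19853 FPKM in LU mouse 3. Albumin is among the 9 and passed the filter through that liver alone, so it could not be called between ND and HFD livers. The fat cell marker Adipoq was at 0.759, 0.508 and 0.50 FPKM in LU livers and at most 0.145 FPKM in the others, and Plin1, the coat protein of fat cell lipid droplets, at 0.14 to 0.338 FPKM in LU livers and at most 0.027 FPKM in the others. Both are under the filter, and without it 2 of 19 markers passed as higher in LU against HFD livers, where 0.1005% of all genes did. Umod, which marks kidney tubules, was listed at 0 or close to it in all livers. The part of the cell markers in the members' differences was not tested.

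GC content separated the libraries in the same way as the additives. Each liver's departure from the average liver was correlated with GC content over 10557 genes, as a description. Spearman's rho ran from -0.39 to -0.14 for ND and HFD livers, and from 0.17 to 0.49 for CLE and LU livers, so that GC content and the additives cannot be told apart. After a correction for GC content, Cyp4a12b differed by 2.14 for CLE against HFD (adjusted p = 8.2e-04) and by 1.96 for LU against HFD livers (adjusted p = 0.0011). Cyp4a31 differed by 1.05 for CLE against HFD (adjusted p = 0.024).

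Among themselves the members followed more than one pattern over the 12 livers. Cyp4a14 and Cyp4a31 were most alike (Pearson r = 0.88 on the log2(FPKM + 1) scale, n = 12 livers), and r was 0.90 after the group means were taken out. Cyp4a12a and Cyp4a12b gave r = 0.85, and 0.67 within groups, although these 2 share much of their sequence. Cyp4a12a and Cyp4a14 gave r = 0.27, and -0.56 within groups. The livers share their groups and library composition, and these values are descriptions.

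The genes outside the family with the pattern most like Cyp4a10 among 11537 genes were B3gat3 (r = 0.89, Spearman's rho = 0.85), Ephx2 (0.88, 0.85), Kin (0.88, 0.85), Retsat (0.88, 0.81) and Atf5 (0.87, 0.81). Without the 2 livers farthest from the median of Cyp4a10 their r was between 0.79 and 0.95. Among those most like Cyp4a14 were Ikbkg (0.90, 0.86), Nipal1 (0.89, 0.81), St3gal5 (0.89, 0.94) and Tmed5 (0.88, 0.81), with r between 0.72 and 0.82 without the 2 farthest livers. For Cyp4a12a they were 2310003H01Rik (0.87, 0.41), Nsun2 (0.87, 0.92), Gm26571 (0.86, 0.83), Iba57 (0.86, 0.82) and Btd (0.84, 0.81). The relation of 2310003H01Rik rested on 2 livers, as its r was 0.09 without them, and the other 4 kept r between 0.69 and 0.79.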

How the data were processed

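Livers of 12 mice were measured, and mice were put into groups by the sample labels. Paired reads of 100 bases were aligned by the authors with TopHat2 2.0.12 and Bowtie2 2.2.3, assembled transcripts with Cufflinks 2.2.1 after base calling with CASAVA 1.8.2, and deposited FPKM values per transcript; the versions are those of the submitters' processing notes. The table holds 152210 transcripts and names 30 samples for its assembly, of which 12 are here. The genome build is not given in the sources used here, but 85.5% of known transcripts have their GRCm38 coordinates of GENCODE M21. Read counts cannot be had from these values, which leaves the depth of the libraries unknown and gives no counting interval. The study computed scaling factors with DEGES and edgeR, and it is not stated whether they entered the FPKM. A gene listed at 0 may be one whose estimate failed.

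Values were summed by the deposited gene name, ignoring case; 6316 transcripts without a name were left out, and the marker Adgre1 was matched through its older symbol. Tests were two-sided and made with limma 3.58.1 (R 4.3.3), fitting log2(FPKM + 1) of all 12 mice with a variance trend and 12.8 degrees of freedom. They covered 11543 genes whose mean reached 0.5 FPKM, at a Benjamini-Hochberg adjusted p of 0.05. A fold on this scale understates the change of low genes. The labels name separate mice within each group. The fit was tested on simulated data. Sequences were read and aligned with Biopython 1.88 in Python 3.11.15.

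The members and gene lists were chosen with earlier results of these data known. Named were the 6 members, at most 4 genes for each list and comparison that passed with the largest differences, Ppara and Dbp whatever their result, and the 5 genes most like Cyp4a10, Cyp4a12a and Cyp4a14, of which 1 is not reported here; Cyp4a29, Cyp4a30b, Umod, albumin, Adipoq and Plin1 were named after their values were seen. Alternatives were a pseudocount of 0.1, no filter or a minimum mean of 5 FPKM, quantile normalization, median-of-ratios scaling, a GC correction, no variance trend, reference transcripts only, the single transcript of highest mean, the 2 groups alone, the mouse number as a block, and each mouse left out. Sums by M21 gene, by protein-coding transcripts and by transcripts of at least 1000 bases were added after seeing the data. Plasma lipids were not analysed here.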

Additional observations from a re-analysis of the deposited data

How the results depend on the processing

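Of 696 recomputed differences of single members, 619 kept their direction and their side of the threshold, 41 lost their call, 12 gained one and 24 turned in direction. The calls of Cyp4a12b and Cyp4a31 for HFD against ND, and of Cyp4a12b for CLE and for LU against HFD, held in all alternatives. Without a filter on low values, where more genes are tested, the number of members called was 3 in place of 6 for HFD against ND, 1 for CLE against HFD, 0 for CLE against ND, 1 for LU against ND and 2 in the F test. With the transcript of the highest mean it was 1 for CLE against HFD and 1 for LU against ND, and with the 2 groups alone 2 for LU against HFD. In both of these settings, and with reference transcripts only, Cyp4a10 lost its call for HFD against ND. After the additions made with the data seen, protein-coding transcripts gave 1 for LU against ND, and transcripts of at least 1000 bases gave 1 for LU against ND and 0 for CLE against ND. Leaving out each mouse, the number called was 2 to 6 for HFD against ND, 1 to 2 for CLE against HFD, 1 to 2 for LU against HFD, 0 to 2 for CLE against ND, 1 to 2 for LU against ND and 2 to 5 in the F test.

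Differences that turned in direction were small and had not passed. Cyp4a14 for LU against HFD, -0.01, became 0.023 with median-of-ratios scaling, 0.048 with quantile normalization, 0.12 with the GC correction, 0.37 with the transcript of the highest mean and 0.39 with protein-coding transcripts or those of at least 1000 bases, and -0.31 to 0.29 with a mouse left out. Cyp4a32 for CLE against LU became -0.047 with the transcript of the highest mean, -0.0074 with reference transcripts, and -0.34 to 0.47 with a mouse left out. With a mouse left out, Cyp4a10 ranged from -0.32 to 0.13 for CLE against ND, -0.42 to 0.030 for LU against ND and -0.0065 to 0.19 for CLE against LU, Cyp4a12b from -0.16 to 0.072 for CLE against ND, and Cyp4a32 from -0.86 to 0.35 for CLE against ND and -0.93 to 0.29 for LU against ND. Ppara for HFD against ND became -0.11 with median-of-ratios scaling, -0.081 with quantile normalization, -0.12 with the GC correction, -0.071 with reference transcripts, -0.14 with sums by M21 gene, -0.16 with protein-coding transcripts or those of at least 1000 bases, and -0.11 to 0.095 with a mouse left out. For CLE against HFD it became -0.12 with reference transcripts or sums by M21 gene and -0.49 with protein-coding transcripts or those of at least 1000 bases. For LU against HFD it became 0.70 with the transcript of the highest mean and -0.13 to 0.065 with a mouse left out. The cause was not tested.

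Mouse numbers are shared by ND with CLE and LU mice, but same-numbered livers did not clearly deviate together (r between -0.29 and 0.20 over 7239 genes). Differently numbered livers were not set beside them, so these values cannot show whether the numbers pair mice. With the number as a block, 1 member passed for CLE against ND, now Cyp4a32 (-1.27, adjusted p = 5.9e-04) and not Cyp4a31 (-0.62, adjusted p = 0.15). For LU against ND 3 passed, Cyp4a12a (-0.79) beside Cyp4a14 (-1.57) and Cyp4a31 (-1.35). These fits rest on the numbers that both groups hold, 2 and 4 for CLE and 2 and 3 for LU. Cyp4a32 was at 238 FPKM in ND mouse 2 and 53.1 in CLE mouse 2, but at 74.1 in ND mouse 4 and 56.0 in CLE mouse 4. Its small adjusted p draws on the spread of other genes and does not measure this disagreement. HFD mice share no number with other groups. Counts over all genes moved with these settings too, with 246 genes lower and 1154 higher for HFD against ND, and 428 and 685 with median-of-ratios scaling. For CLE against HFD 316 genes were higher and 379 lower, and 34 and 61 with the 2 groups alone. Of the PPAR-alpha targets, 9 fell for HFD against ND with median-of-ratios scaling and 1 by each gene's top transcript, in place of 6. The shares of all genes lower were 3.71% and 1.24%, in place of 2.13%. The depth of the libraries is unknown, and 3 mice a group leave wide intervals.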
